A study of Homo sapiens with 6 samples.

Results

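The nuclear lamina and inner nuclear membrane genes are 10 genes of the human nuclear envelope, LMNA, LMNB1, LMNB2, TMPO, LBR, EMD, LEMD3, BANF1, SUN1 and SUN2. They were taken by symbol from the 35474 genes of the deposited tables, and all 10 passed the filter on low counts that left 20776 genes for testing. The members were chosen from fold changes between siBAP18 and siCtrl cells already known in these data, so their values in that contrast describe them and are not independent evidence of any direction. RNA sequencing compared A549 cells, a human lung adenocarcinoma cell line, transfected with small interfering RNA against BAP18 (siBAP18, n = 3) or with a non-targeting RNA (siCtrl, n = 3). BAP18, the product of C17orf49, is a BPTF-associated chromatin factor. All 6 cultures were collected 48 h after transfection, are labelled as biological replicates and come from a single line. Which of the 3 BAP18 siRNAs listed by the study they received is not given in the sources used here.

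The nuclear lamina is a meshwork of intermediate filaments beneath the inner nuclear membrane. It is built from A-type lamins, which come from LMNA, and from B-type lamins, which come from LMNB1 and LMNB2. Membrane proteins such as LBR, emerin and several of the LAP2 proteins tie chromatin to this meshwork. SUN proteins span the inner membrane and reach the cytoskeleton through nesprins. Lamin A/C is low in early embryonic cells and rises as cells differentiate, LBR often takes the opposite course, and loss of lamin B1 is a known feature of senescent cells.

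The siCtrl libraries held 46035635 to 53657450 counts and the siBAP18 libraries 42094524 to 56548620, of which mitochondrial genes took 6.86 to 7.43% and 5.27 to 6.14%. C17orf49 had 743, 751 and 705 counts in siCtrl replicates 1, 2 and 3 and 120, 137 and 108 counts in the siBAP18 replicates, a log2 fold change of -2.65 (SE 0.11, adjusted p = 7.31e-16, edgeR). All 5 epithelial markers (KRT8, KRT18, KRT7, EPCAM, CDH1) were detected. Their summed level was 21114 to 22542 counts per 1000000 in siCtrl and 17182 to 19984 in siBAP18 libraries. Summed marker levels are scaled to the library's total counts only. In contrast, 4 alveolar markers (NKX2-1, SFTPB, SFTPC, SFTPA2) had at most 8 counts in any library, so these 4 genes were nearly absent. The epithelial markers also differed between the groups. CDH1 (log2 fold change -1.32, adjusted p = 3.81e-14), EPCAM (-0.41), KRT8 (-0.37) and KRT18 (-0.24) were lower and KRT7 (0.43) was higher, and their part in the results was not tested. Of the markers of other cell types, PECAM1 had 8 to 45 counts per library, VWF at most 6 and COL1A1 349 to 611, and their summed level was 12.2 to 13.5 counts per 1000000 in siCtrl and 8.62 to 10.5 in siBAP18 libraries. PTPRC, CD3E, DCN and SFTPA1 were not found by symbol among the 35474 genes listed, so they were not analysed here.

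Of the 10 genes, 4 were lower in siBAP18 cells (TMPO, LBR, LMNB1 and LMNB2) and 4 were higher (LMNA, SUN2, EMD and BANF1) at an adjusted p under 0.05, while LEMD3 and SUN1 did not pass. Among all genes tested, 25.1% were lower and 24.5% were higher by the same rule. TMPO, LBR and LMNB1 also had a log2 fold change under -1, which 3.74% of all genes met, and none of the 10 had one over 1, which 4.72% met. The siBAP18 libraries lay wholly below the siCtrl libraries for 4 members and wholly above for 4, against 29.0% and 27.6% of all genes. The median log2 fold change was -0.060 over the members and 0.0010 over all genes. Since the choice of members used this contrast, nothing is read from these counts.

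**Figure D1:**
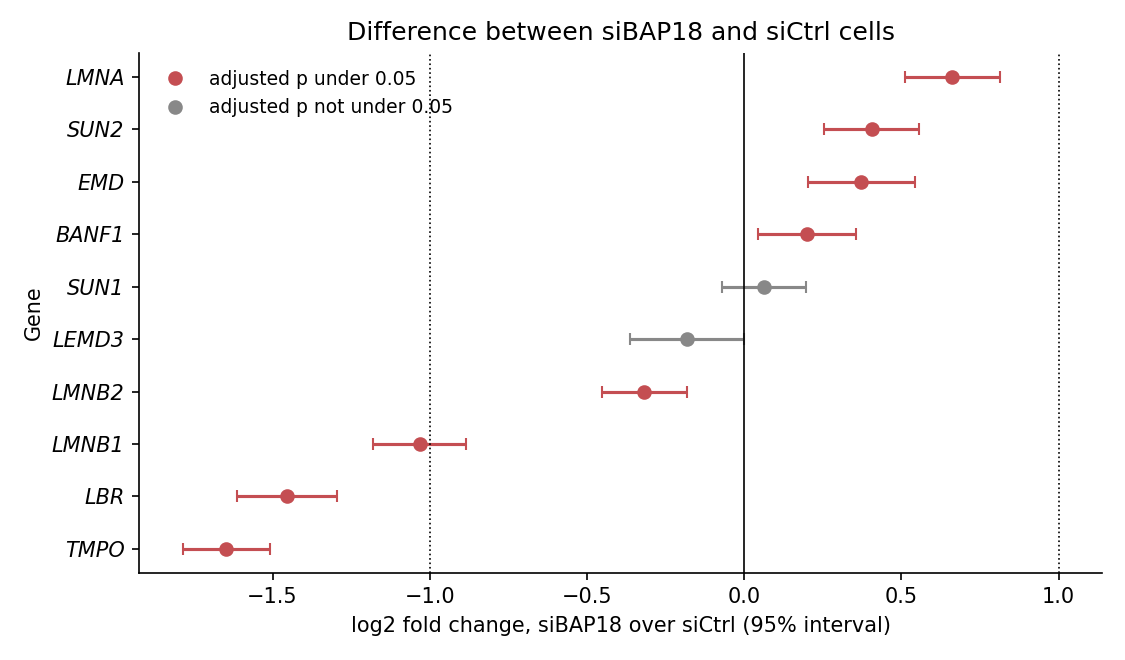
Log2 fold change of each gene (x axis, siBAP18 over siCtrl) with its 95% interval from edgeR, genes on the y axis ordered by value, red where the adjusted p is under 0.05 and dotted lines at -1 and 1. TMPO at -1.65 and LBR at -1.45 lie furthest to the left, LMNA at 0.66 lies furthest to the right, and the interval of SUN1 spans 0.

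Levels between genes were compared as RPKM, reads per kilobase of gene length scaled to the library's total. The length is the one listed with the counts, such as 11811 bases for SUN1, 8593 for TMPO and 2020 for EMD. The order between genes depends on these lengths. In siCtrl cells the order of the mean levels was LMNA (89.7 ± 3.77 RPKM, SD, n = 3), BANF1 (79.2 ± 1.26), LMNB1 (26.9 ± 0.489), LMNB2 (25.9 ± 0.600), TMPO (16.1 ± 0.040), EMD (8.58 ± 0.409), LBR (7.71 ± 0.601), SUN1 (7.01 ± 0.145), SUN2 (4.71 ± 0.046) and LEMD3 (2.92 ± 0.063). The libraries of neighbours in this order did not overlap except for EMD and LBR. In siBAP18 cells LMNA (142 ± 8.48) and BANF1 still led and LEMD3 was still lowest, but TMPO (5.14 ± 0.329) and LBR (2.82 ± 0.089) now stood below SUN1 and SUN2, TMPO also below EMD, and LMNB2 (20.8 ± 0.862) stood above LMNB1 (13.2 ± 1.63). There the libraries of LMNB1 and EMD overlapped, as did those of LBR and LEMD3.

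**Figure D2:**
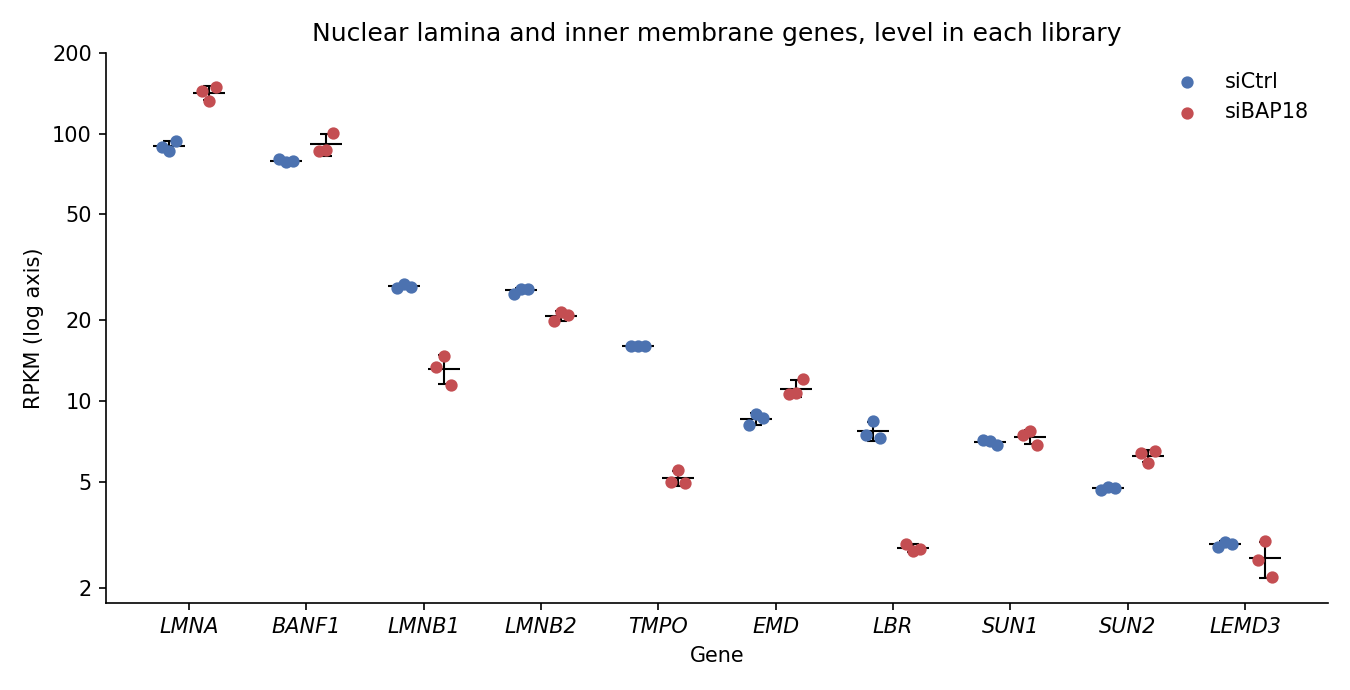
RPKM of each gene (log axis) in the 3 siCtrl libraries (blue) and the 3 siBAP18 libraries (red), with black bars for mean and SD, genes ordered by their siCtrl mean. TMPO, LBR and LMNB1 drop well below their siCtrl points, LMNA rises from 89.7 to 142 RPKM, and the points of SUN1 and LEMD3 overlap between groups.

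The upstream sequences of the genes with the largest differences in each direction are shown first, to let the sharply lower TMPO, LMNB1 and LBR be set beside LMNA. They run 5′ to 3′ on the strand of the gene from 250 bases before to 50 bases after a RefSeq start site on GRCh38.p14, and capitals mark the searched words. The words were CCAAT (the CCAAT box, bound by NF-Y), TTTGAA (the cell cycle homology region, CHR) and TTTCGCGC, TTTGGCGC or TTTCCCGC (E2F), each on both strands, so that a CCAAT on the reverse strand reads ATTGG.
TMPO, chr12:98515323-98515622, + strand: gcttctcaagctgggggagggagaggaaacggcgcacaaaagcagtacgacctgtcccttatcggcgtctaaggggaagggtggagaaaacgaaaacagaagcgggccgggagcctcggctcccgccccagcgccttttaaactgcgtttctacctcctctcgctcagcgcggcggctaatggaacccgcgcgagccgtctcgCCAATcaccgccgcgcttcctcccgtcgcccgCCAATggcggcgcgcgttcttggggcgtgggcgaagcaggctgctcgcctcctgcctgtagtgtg
LMNB1, chr5:126776886-126777185, + strand: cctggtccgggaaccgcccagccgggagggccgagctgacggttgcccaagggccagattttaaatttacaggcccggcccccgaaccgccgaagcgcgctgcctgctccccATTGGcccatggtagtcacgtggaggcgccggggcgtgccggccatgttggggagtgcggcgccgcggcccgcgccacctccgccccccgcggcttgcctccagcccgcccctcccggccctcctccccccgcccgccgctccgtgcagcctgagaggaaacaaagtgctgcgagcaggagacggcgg
LBR, chr1:225428772-225429071, - strand: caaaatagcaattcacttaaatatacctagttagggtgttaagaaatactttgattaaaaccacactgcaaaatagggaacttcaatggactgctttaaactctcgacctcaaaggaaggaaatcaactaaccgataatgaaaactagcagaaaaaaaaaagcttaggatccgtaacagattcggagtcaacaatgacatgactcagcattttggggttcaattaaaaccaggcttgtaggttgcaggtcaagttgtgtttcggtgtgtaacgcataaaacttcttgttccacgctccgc
LMNA, chr1:156082323-156082622, + strand: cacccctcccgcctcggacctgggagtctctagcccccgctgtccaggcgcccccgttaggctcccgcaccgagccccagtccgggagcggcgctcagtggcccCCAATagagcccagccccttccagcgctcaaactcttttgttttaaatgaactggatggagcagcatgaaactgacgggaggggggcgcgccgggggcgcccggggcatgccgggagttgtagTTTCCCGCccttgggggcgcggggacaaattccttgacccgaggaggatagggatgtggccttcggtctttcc

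TMPO holds CCAAT at 47 and 15 bases before the start site, LMNB1 holds it on the reverse strand at 138 bases before, and LMNA holds it at 146 bases before together with the E2F word TTTCCCGC at 23 bases before. None of the searched words was in the LBR window, whose GC content was 38.3% against 65.0% for TMPO, 73.7% for LMNB1 and 66.3% for LMNA. RefSeq gave a window for 9 of the 10 members, all but SUN1, with more than 1 start site for LMNA, LMNB1, TMPO and SUN2. For LMNA and LMNB1 the printed window was picked because it holds a searched word. The other LMNB1 window (GC 52.0%) and both other LMNA windows (GC 69.0%) hold none, while the other TMPO window overlaps the printed one and holds the same CCAAT words. CCAAT was found in 6 of the 9 (TMPO, LMNB1, LMNA, EMD, LEMD3 and SUN2), compared with 39.7% of 27305 genes with a window. TTTGAA was found in LMNB2 and SUN2, compared with 18.2% of genes, and an E2F word in LMNA and LEMD3, compared with 3.3%. The CCAAT word was present in genes that were lower, genes that were higher and a gene that did not pass, and its part in these differences was not tested.

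The lamins differed in direction. LMNA (chr1:156082573-156140089, + strand), the gene of lamins A and C, had 627, 597 and 660 CPM in siCtrl replicates 1, 2 and 3 and 1003, 896 and 1078 CPM in siBAP18 replicates 1, 2 and 3, where CPM is counts per 1000000 after TMM scaling. Every siBAP18 library was above every siCtrl library. LMNA rose by a log2 fold change of 0.66 (SE 0.073, adjusted p = 4.11e-08), and the counts per gene do not separate lamin A from lamin C transcripts.

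LMNB1 (chr5:126776623-126837020, + strand), the gene of lamin B1, had 96.9, 98.5 and 97.9 CPM in the siCtrl libraries and 48.4, 51.6 and 43.2 CPM in the siBAP18 libraries. The siCtrl values were nearly equal and all siBAP18 values were far below them, with replicate 3 the lowest. LMNB1 fell by 1.03 on the log2 scale (SE 0.072, adjusted p = 1.06e-11). Without siBAP18 replicate 3 its log2 fold change was -0.96, no longer under -1.

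LMNB2 (chr19:2427638-2456996, - strand), the gene of lamin B2, had 139, 143 and 144 CPM in siCtrl and 108, 114 and 120 CPM in siBAP18 libraries. The groups did not overlap, but the difference was smaller than for LMNB1. LMNB2 fell by 0.32 on the log2 scale (SE 0.066, adjusted p = 0.000250). It shares 257 exon bases, 4.7% of its listed length, with TIMM13 on the same strand, whose log2 fold change was 0.10 (adjusted p = 0.372).

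Set against each other within a library, the lamin genes shifted towards LMNA. LMNA made up 63.3, 61.6 and 63.9% of the summed lamin RPKM in siCtrl replicates and 81.3, 78.5 and 82.1% in siBAP18 replicates. LMNB1 went from 18.8, 19.6 and 18.2% to 7.54, 8.7 and 6.32%, and LMNB2 from 17.9, 18.8 and 17.8% to 11.2, 12.8 and 11.6%. None of these shares overlapped between the groups. The ratio of LMNA to LMNB1 RPKM was 3.34 ± 0.177 (SD, n = 3) in siCtrl and 10.9 ± 1.99 in siBAP18 cells, and that of LMNB2 to LMNB1 was 0.964 ± 0.012 and 1.60 ± 0.211. The summed lamin RPKM itself went from 143 ± 3.79 to 176 ± 6.24, so the lower B-type levels stood beside a higher total. These shares are ratios of the values that chose the genes and are given without a test.

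**Figure D3:**
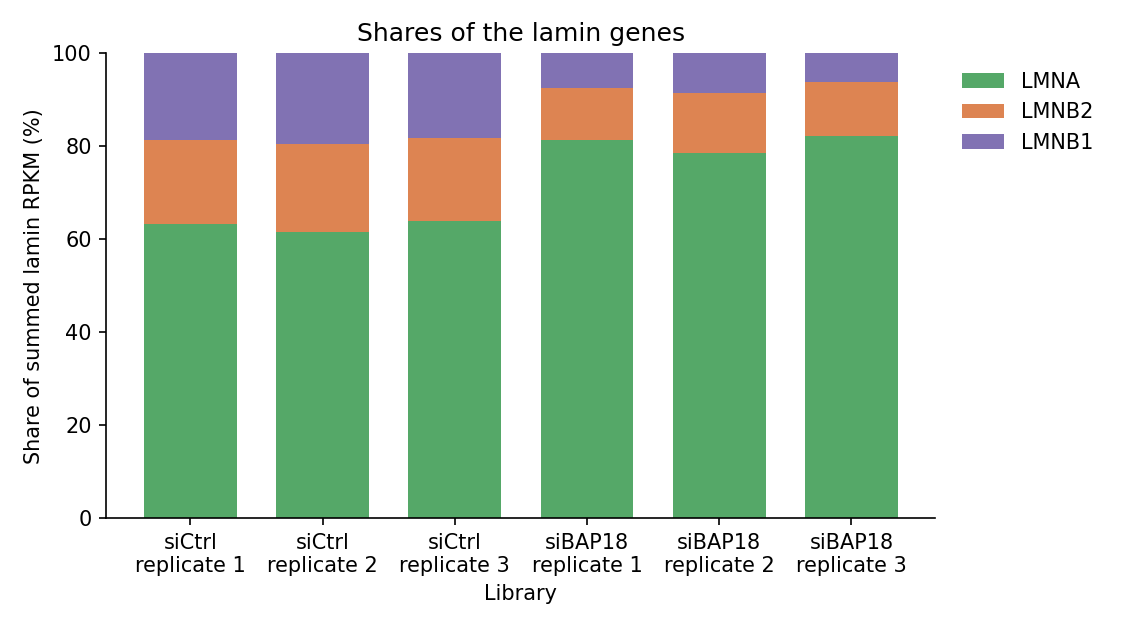
Share of the summed RPKM of LMNA, LMNB2 and LMNB1 (y axis, %) in each of the 6 libraries (x axis), as stacked bars. The LMNA part takes 61.6 to 63.9% of the bar in siCtrl and 78.5 to 82.1% in siBAP18 libraries, and the LMNB1 part shrinks from at least 18.2% to at most 8.7%.

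TMPO and LBR, whose proteins bind chromatin or lamins, had the lowest log2 fold changes of the 10 genes. TMPO (chr12:98515512-98550379, + strand) encodes the LAP2 proteins, which bind lamins and the chromatin protein BAF. It had 139, 137 and 139 CPM in siCtrl replicates and 42.3, 46.0 and 44.1 CPM in siBAP18 replicates. Both groups were tight and far apart, with 7412, 6359 and 6478 counts against 2302, 2684 and 1789. TMPO fell by 1.65 on the log2 scale (SE 0.067, adjusted p = 4.31e-16), which is 3.13-fold lower. The counts per gene do not separate the transcripts of the different LAP2 proteins, not all of which are membrane proteins.

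The antisense gene TMPO-AS1, named after its values were seen, shares 713 exon bases with TMPO, 8.3% of the listed length of TMPO and 21.2% of its own. It had 2022, 1624 and 1624 counts in siCtrl and 689, 906 and 571 counts in siBAP18 libraries, a log2 fold change of -1.35 (SE 0.081, adjusted p = 7.92e-13). The libraries were made with dUTP strand marking, but whether the counting used strand is not given in the sources used here, so reads in the shared bases cannot be assigned to either gene with certainty. The TMPO pseudogenes TMPOP1 and TMPOP2 had at most 13 and 22 counts in any library.

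TMPO was also the only member whose 3′ UTR held a word matching guide bases 2 to 8 of a BAP18 siRNA, in GENCODE 29 transcripts. The word lies at chr12:98549961-98549967 on the + strand of GRCh38, in 1 of 5 TMPO transcripts with a 3′ UTR (TMPO-212), and is shown in capitals because it complements the seed of the siRNA listed as siBAP18#3.
TMPO 3′ UTR site: gggcaccttttACTCAACttttctttgttt
Among 13740 tested genes with a 3′ UTR, 1030 (7.5%) held this word, and their median log2 fold change was -0.25 against 0.0050 for the others. No member held the words of siBAP18#1, siBAP18#2 or siCtrl, present in 15.1%, 12.1% and 3.28% of genes. Genes with the siBAP18#1 and siBAP18#2 words also had lower medians, -0.14 against 0.0084 and -0.13 against 0.0037, while those with the siCtrl word had a median of 0.0098 against -0.014. These medians are not adjusted for 3′ UTR length, and the part of the word in the TMPO difference was not tested.

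LBR (chr1:225401502-225428925, - strand) encodes the lamin B receptor, a membrane protein that binds lamin B and heterochromatin and carries sterol reductase activity. It had 39.7, 43.7 and 38.4 CPM in siCtrl and 15.2, 14.0 and 15.3 CPM in siBAP18 libraries. The siBAP18 values agreed closely with each other and none came near the siCtrl range. LBR fell by 1.45 on the log2 scale (SE 0.077, adjusted p = 7.50e-14), which is 2.74-fold lower. The ratio of LMNA to LBR RPKM went from 11.7 ± 1.31 to 50.3 ± 2.47 (SD, n = 3).

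All 6 proliferation markers (MKI67, TOP2A, PCNA, MCM2, CCNA2 and CCNB1) were lower in the same libraries, compared with 25.1% of all genes tested. Their median log2 fold change was -0.86, with a range from -1.31 for TOP2A to -0.22 for CCNB1. CCNB2, a cyclin gene outside these markers, did not pass (log2 fold change -0.098, adjusted p = 0.245). The summed level of the 6 markers was 1019 to 1061 counts per 1000000 in siCtrl and 475.55 to 548.96 in siBAP18 libraries, without TMM scaling. The part of proliferation in the lower TMPO, LBR, LMNB1 and LMNB2 was not tested. In bulk RNA, fewer cells in a given state and less RNA per cell cannot be told apart.

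EMD (chrX:154379197-154381523, + strand) encodes emerin, an inner membrane protein with the LEM domain that binds BAF. It had 16.6, 17.9 and 17.6 CPM in siCtrl and 21.2, 21.0 and 25.3 CPM in siBAP18 libraries. The groups did not overlap, and siBAP18 replicate 3 was the highest. EMD rose by a log2 fold change of 0.37 (SE 0.083, adjusted p = 0.000541), the reverse of TMPO, which encodes proteins with the same domain.

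LEMD3 (chr12:65169571-65248327, + strand) encodes MAN1, a LEM domain protein that binds SMAD proteins. It had 16.0, 16.4 and 16.4 CPM in siCtrl and 14.1, 16.1 and 12.7 CPM in siBAP18 libraries, and siBAP18 replicate 2 lay within the siCtrl range. The log2 fold change was -0.18 (95% interval -0.36 to -0.0022, adjusted p = 0.0871), which did not pass. Without siBAP18 replicate 2 it was -0.28 (adjusted p = 0.00726), and without siBAP18 replicate 3 it was -0.10 (adjusted p = 0.281).

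Per length, the mix of these LEM domain genes differed between the groups. TMPO made up 59.4, 57.4 and 58.0% of the summed RPKM of TMPO, EMD and LEMD3 in siCtrl libraries and 27.4, 28.7 and 25.7% in siBAP18 libraries. EMD went from 30.1, 32.0 and 31.3% to 58.5, 55.7 and 62.8%, so that EMD and not TMPO was the largest of the 3 in every siBAP18 library. The summed RPKM went from 27.6 ± 0.451 to 18.8 ± 0.635 (SD, n = 3).

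BANF1 (chr11:66002079-66004149, + strand) encodes BAF, the DNA-bridging protein to which LEM domain proteins bind. It had 133.8, 127.5 and 130.3 CPM in siCtrl and 140.0, 137.9 and 172.0 CPM in siBAP18 libraries. The groups did not overlap, but siBAP18 replicates 1 and 2 lay only just above siCtrl and replicate 3 stood apart. BANF1 rose by a log2 fold change of 0.20 (SE 0.076, adjusted p = 0.0324). Without siBAP18 replicate 3 the log2 fold change was 0.092 (adjusted p = 0.156), so its size depended on that library. Without siCtrl replicate 1, 2 or 3 the log2 fold change stayed at 0.21, 0.18 and 0.20. With fewer libraries the adjusted p was then 0.0733, 0.134 and 0.0989, so the call lay close to the threshold. BANF1 shares 98 exon bases with EIF1AD on the opposite strand, and its pseudogene BANF1P3 had 80 to 120 counts per library, compared with at least 5931 for BANF1.

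SUN1 and SUN2 encode the inner membrane side of the LINC complex, which links the nucleus to the cytoskeleton. SUN1 (chr7:816615-896435, + strand) had 84.8, 82.5 and 81.4 CPM in siCtrl and 87.7, 88.2 and 83.9 CPM in siBAP18 libraries. The groups overlapped and the log2 fold change was 0.062 (95% interval -0.071 to 0.20, adjusted p = 0.452). SUN1 shares 1842 exon bases, 15.6% of its listed length, with GET4 on the same strand, whose log2 fold change was 0.76 (adjusted p = 7.43e-09).

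SUN2 (chr22:38734725-38794143, - strand) had 30.5, 30.6 and 30.8 CPM in siCtrl and 41.2, 36.9 and 43.7 CPM in siBAP18 libraries. All siBAP18 libraries were above the narrow siCtrl range. SUN2 rose by a log2 fold change of 0.40 (SE 0.073, adjusted p = 5.23e-05). The ratio of SUN2 to SUN1 RPKM went from 0.672 ± 0.017 to 0.855 ± 0.093 (SD, n = 3). SUN2 overlaps GTPBP1 and 3 unnamed antisense genes on the opposite strand and DNAL4 on its own. GTPBP1 shares the most with it, 680 exon bases or 10.5% of the listed length of SUN2, with a value of 0.20 on the log2 scale (adjusted p = 0.0387). The antisense genes share 450, 359 and 236 exon bases and had log2 fold changes of 0.40, 0.33 and -0.055. DNAL4 shares 76 bases and was at 0.51 (adjusted p = 1.60e-05). Reads in these shared bases cannot be assigned to either gene with certainty.

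Around these genes, 7 lists of nuclear envelope genes held 85 tested genes, of which 38 were lower, 27 higher and 20 did not pass. Their median log2 fold change was -0.11. Among all genes tested, 25.1% were lower and 24.5% higher by the same rule, shares that also stand beside the counts of each list below. The lists were chosen with earlier results of these data known, so nothing is read from their counts. Of the LINC complex partners, 5 were tested, 3 of them lower and 2 higher, with a median log2 fold change of -0.60. SYNE2, the gene of the giant nesprin-2, fell by 1.24 on the log2 scale (SE 0.074, adjusted p = 5.60e-13), from 168.5 ± 8.46 to 71.2 ± 6.76 CPM (SD, n = 3). The nesprin genes SYNE1 and SYNE4 rose by log2 fold changes of 0.47 (adjusted p = 6.66e-05) and 0.67 (adjusted p = 0.00170), the first from 36.2 ± 2.42 to 50.0 ± 7.26 CPM. SYNE3 fell by 0.73 in log2 units (adjusted p = 0.0304) and SPAG4, a SUN domain gene, fell by 0.60 (adjusted p = 0.0195), both with at most 125 counts in any library and with groups that overlapped. Without siCtrl replicate 1 the log2 fold change of SYNE3 was -0.42 (adjusted p = 0.289), and it also missed the threshold without siBAP18 replicate 1 (adjusted p = 0.141) or 3 (adjusted p = 0.0764). Without siCtrl replicate 3 the log2 fold change of SPAG4 was -0.39 (adjusted p = 0.169), and it also missed without siCtrl replicate 1 (adjusted p = 0.0548) or siBAP18 replicate 1 (adjusted p = 0.0638). CCDC155 and SUN3 had too few counts to test.

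Of 12 other inner membrane and LEM domain genes, 6 were lower, 4 higher and 2 did not pass, with a median log2 fold change of -0.20. LEMD2, a LEM domain gene, rose by a log2 fold change of 0.63 (adjusted p = 1.10e-07), in the direction of EMD. NRM, the gene of nurim, fell by 0.77 in log2 units (adjusted p = 9.31e-05), TOR1B, a torsin gene of the envelope lumen, fell by 0.39 (adjusted p = 0.00138), and TOR1AIP1, the gene of LAP1, fell by 0.32 (adjusted p = 0.000608). Among the 5 lamin processing enzymes, FNTB, the beta subunit of the farnesyltransferase that modifies lamins, fell by 0.49 (adjusted p = 2.58e-05) and ZMPSTE24, the protease that cleaves prelamin A, fell by 0.33 (adjusted p = 0.00230). RCE1, the protease that trims farnesylated proteins, rose by 0.32 (adjusted p = 0.00753) and ICMT, their methyltransferase, rose by 0.21 (adjusted p = 0.0313) on the log2 scale, while FNTA did not pass. RCE1 missed the threshold without siCtrl replicate 1 (adjusted p = 0.0636), and ICMT missed it without siCtrl replicate 1 (adjusted p = 0.128), siCtrl replicate 3 (adjusted p = 0.171) or siBAP18 replicate 1 (adjusted p = 0.156).

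The kinases and phosphatases that act on the lamina and on BAF had 6 of 9 tested genes lower, 1 higher and 2 not passed, with a median log2 fold change of -0.32. CDK1, which phosphorylates lamins at mitotic entry, fell by 1.25 on the log2 scale (SE 0.080, adjusted p = 2.83e-12), and VRK1, the kinase of BAF, fell by 0.93 (adjusted p = 2.95e-08). PRKCA, a protein kinase C gene, fell by 0.46 (adjusted p = 3.95e-06), and PPP2R2A, a regulatory subunit of protein phosphatase 2A, rose by a log2 fold change of 0.41 (adjusted p = 1.43e-05). CCNB1, the partner of CDK1, is in this list and among the proliferation markers. The envelope sealing genes, which close the membrane after mitosis, had 9 of 12 higher, 2 lower and 1 not passed, with a median of 0.26. CHMP4B, an ESCRT filament gene, rose from 429.1 ± 17.5 to 616.3 ± 19.6 CPM (SD, n = 3, log2 fold change 0.52, adjusted p = 3.29e-07) and VPS4A, an ATPase that takes ESCRT filaments apart, by a log2 fold change of 0.47 (adjusted p = 8.29e-06). Its close relative VPS4B fell by 0.61 in log2 units (adjusted p = 1.77e-07), and SPAST, which cuts microtubules at the envelope, fell by 0.59 (adjusted p = 2.90e-06).

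Of 32 nuclear pore genes, 16 were lower, 6 higher and 10 did not pass, with a median log2 fold change of -0.17. NDC1, a membrane nucleoporin, fell by 1.12 in log2 units (adjusted p = 7.41e-08), TPR, of the nuclear basket, fell by 0.77 (adjusted p = 8.74e-10) and RANBP2, of the cytoplasmic filaments, fell by 0.57 (adjusted p = 2.43e-07). POM121C rose by a log2 fold change of 0.69 (adjusted p = 4.69e-09), an uncertain value because its near-identical copy POM121 can share its reads. Of 10 genes of peripheral heterochromatin, 3 were lower, 3 higher and 4 did not pass, with a median of 0.034. CBX5 and CBX3, the genes of the heterochromatin proteins HP1 alpha and gamma, fell by 0.64 (adjusted p = 9.86e-08) and 0.70 (adjusted p = 3.04e-09), and the histone H3 lysine methyltransferase gene SUV39H2 fell by 0.63 (adjusted p = 0.00172) on the log2 scale. HDAC3, a histone deacetylase that acts with LAP2 and emerin, rose by a log2 fold change of 0.28 (adjusted p = 0.00212).

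**Figure D4:**
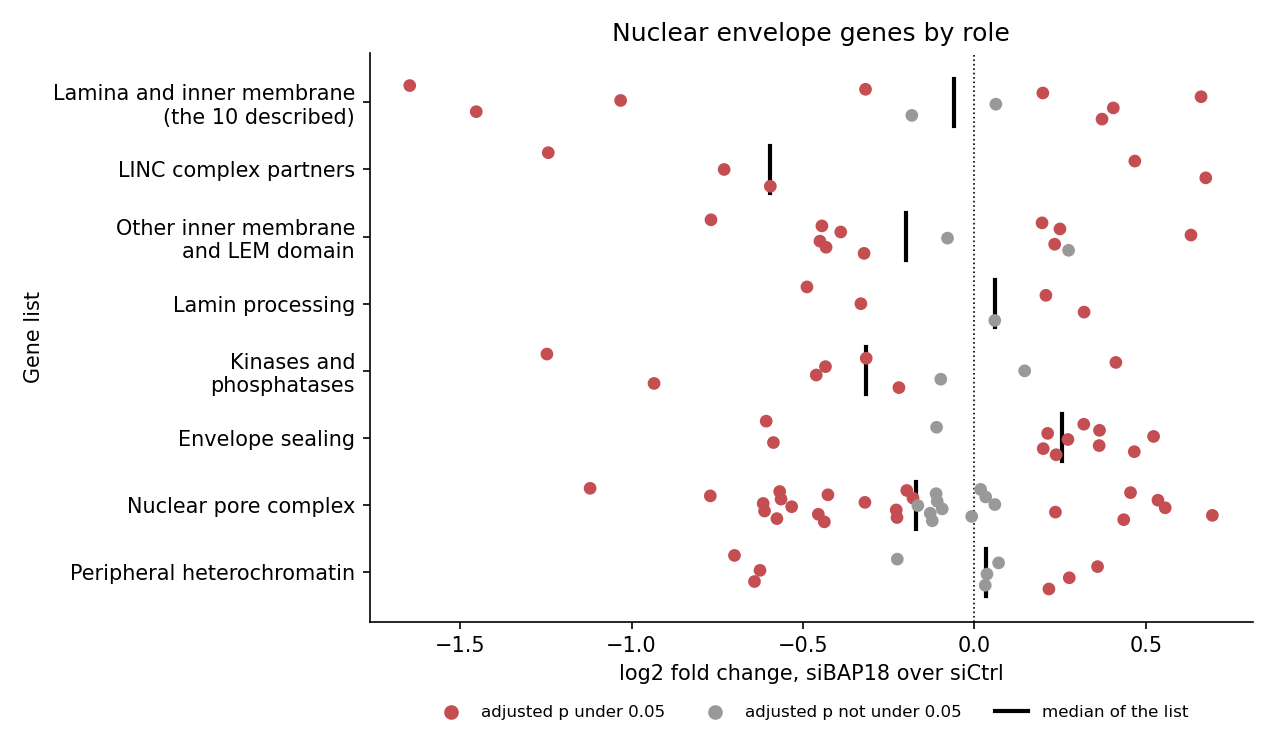
Log2 fold change of each tested gene (x axis, siBAP18 over siCtrl) in the described genes and 7 lists of related nuclear envelope genes (y axis), red where the adjusted p is under 0.05, with a black bar for the median. Points lie on both sides of 0 in every list, and the medians run from -0.60 for the LINC complex partners to 0.26 for the envelope sealing genes.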

How the data were processed

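RNA from 3 siCtrl and 3 siBAP18 cultures of A549 cells was sequenced as poly(A)-selected, dUTP-marked libraries. The authors deposited counts, whole numbers of reads per gene without normalization, and RPKM values, the same reads per kilobase of listed gene length scaled to the library's total. The aligner, the counting program and its use of strand are not given in the sources used here. The submitters' processing notes list the builds hg38 and GRCm38 without a role, and the start and end of all 10 members match GENCODE 29 on GRCh38.

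Counts were fitted in R 4.3.3 with edgeR 4.0.16 (filterByExpr, TMM, quasi-likelihood test by condition, Benjamini-Hochberg adjustment over 20776 genes). Standard errors are the log2 fold change over the square root of F. Called means that the adjusted p was under 0.05 and that the log2 fold change was over 1 or under -1. The p-values measure the spread between 3 cultures a group. A count of 0 allows up to 3 counts of a library, for counting error only. No replicate was a copy of another. Counts differed more between siBAP18 replicates (chi-square per degree of freedom 10.1, 11.9 and 23.3) than between siCtrl replicates (3.94 to 4.56). The fit was tested on simulated data. Alternatives used DESeq2 1.42.0 and limma 3.58.1 (log2 of RPKM plus 1 or 0.1), other scalings and filters, a replicate block and each library left out.

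Members and lists were chosen with earlier results of these data known. All members are named, and from each related list up to 4 genes with the smallest adjusted p under 0.05, or every such gene where 5 or fewer passed. Promoters came from RefSeq (GRCh38.p14) and 3′ UTRs from GENCODE 29, searched with Python 3.11.15. Plots used matplotlib 3.10.9.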

Additional observations from a re-analysis of the deposited data

How the results depend on the processing

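Over 16 alternatives, 154 of 160 fits of the 10 members kept their direction and side of the threshold, and none reversed. The other 6 were BANF1, which missed the threshold in 5 (limma on log2(RPKM + 1) without a filter, adjusted p = 0.0968, and 4 left-out libraries), and LEMD3, which passed without siBAP18 replicate 2. The members lower numbered 4 to 5, those higher 3 to 4, and those called lower 2 to 3, since LMNB1 had a log2 fold change of -0.98 in limma on log2(RPKM + 1) with or without a filter and -0.96 without siBAP18 replicate 3. With each library left out, TMPO ranged from -1.68 to -1.62, LBR from -1.49 to -1.40, LMNB1 from -1.09 to -0.96 and LMNA from 0.60 to 0.73. Related genes lower numbered 27 to 40 and those higher 21 to 28. In limma on log2(RPKM + 1), whose pseudocount lowers the fold change of low genes, NDC1 was at -0.50. Among the related genes named, the adjusted p threshold was missed in limma on RPKM by SYNE1 (0.0516, 0.0540 and 0.130), SPAG4 (0.0772, 0.0796 and 0.182), ICMT (0.0806, 0.0795 and 0.147), ZMPSTE24 (0.0505 and 0.125) and SYNE3 (0.338), in the DESeq2 Wald test by SPAG4 (0.0732), SYNE3 (0.0983) and ICMT (0.0546), and without a filter by ICMT (0.0771). Residuals of libraries with the same replicate number were nearly uncorrelated across genes (r = -0.017, 0.051 and 0.0038). This cannot show whether those cultures were handled together. With the replicate block 4 members were lower, 4 higher and 3 called lower, with TMPO at -1.65. With 3 cultures a group of 1 cell line and 1 time point, small differences such as those of SUN1 and LEMD3 are bounded only by their intervals.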
